A study of Mus musculus with 9 samples.

Results

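Melanocytes sorted from tail epidermis were compared between mice with an epidermal Spry1 knockout and their controls. The comparison took every library that the labels place in either group, 3 knockout tail and 3 control tail libraries of the 9 in the series, and all 16299 genes of the deposited table. Control mice carried loxP-flanked Spry1 on both alleles (Spry1flox/flox). Knockout mice carried the same floxed alleles together with k14-Cre-ERT2, a Cre recombinase fused to a modified oestrogen receptor domain and driven by the keratin 14 promoter. Both groups therefore shared the floxed alleles, and no control with the Cre alone was among the samples used here. The keratin 14 promoter is active in basal keratinocytes, so the deletion was aimed at the cells that surround melanocytes and not at the sorted cells themselves. The labels used here give no inducing agent, age or sex. They do not state whether each replicate is another animal, and a p-value then speaks only for the spread among these libraries, part of which can be technical. The 3 remaining libraries, from the back epidermis of knockout mice, entered the shared estimate of that spread. In the fit with a second term, described below, they also entered the estimate of that term and so affected the tail difference.

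Spry1 encodes Sprouty 1, an inhibitor that dampens signalling from receptor tyrosine kinases, such as the fibroblast growth factor (FGF) receptors, to the ERK kinases. Melanocytes make melanin in membrane-bound melanosomes and hand these to neighbouring keratinocytes, from which they receive Kit ligand, endothelins and melanocortins. Interferons are secreted by cells that sense viruses or misplaced nucleic acid. Type I interferons bind the receptor chains Ifnar1 and Ifnar2 and act through the kinases Jak1 and Tyk2 on a complex of transcription factors that binds the interferon-stimulated response element in promoters of antiviral, antigen-presentation and feedback genes.

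Values are given on 2 scales. The deposited value is a log2-like expression level, and differences are knockout minus control on that scale. It was made from counts by a curve that flattens at low counts, so differences are compressed for genes at low counts. From the deposited values the whole-number counts behind all 16299 genes were recovered, and a normalised count is such a count divided by the size factor of its library. The recovered counts summed to between 70.0 and 72.4 M (mega) in the control libraries, and to 72.0, 69.4 and 50.2 M in knockout replicates 1, 2 and 3. Before deposit, the libraries had been shifted gene by gene so that the mean of knockout replicate 3 and back replicate 3 equalled that of the other 7. Both sets, controls included, had been moved by equal amounts in opposite directions. That step took no account of group, and the shift between the sets exceeded 1 on the log2 scale in 18.3% of genes. Normalised counts do not contain it. Differences are therefore given from a fit with group alone, and from a fit with the set of those 2 libraries as a second term, whose estimates do not depend on the shift.

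Some libraries stood apart. Melanocyte markers summed to 61875 to 75577 counts in 1000000 of the library (CPM) in control libraries and 101037 to 107529 in knockout libraries, the highest sum of the marker lists in each tail library. Knockout replicates 1 and 2 held transcripts of the Y-linked gene Eif2s3y (normalised counts 3948 and 4793) and almost none of Xist (4 and 16), whereas knockout replicate 3 and the controls held Xist (1416 to 7358) and at most 121 of Eif2s3y. Haemoglobin and other erythroid transcripts summed to 1445 and 1806 CPM in knockout replicates 1 and 2, to 42.6 in replicate 3 and to 10.6 to 165 in the controls. Basal keratinocyte markers summed to 8685 CPM in knockout replicate 3, against 1304 to 3042 in controls and 1631 and 964 in the other knockout libraries. A principal component analysis of the 6 tail libraries was run on the deposited values of the most variable genes. These values had been moved by the step before deposit, and positions with the removed shift put back were not examined. The first component held 49.5% of the variance of those genes. It placed knockout replicates 1 and 2 at 20.7 and 22.7, knockout replicate 3 at -5.83, and the controls between -21.2 and -6.66. For this reason the differences of replicates 1 and 2 and of replicate 3 from the controls are given apart where they bear on a result, with the removed shift put back. These sums are from bulk RNA, so more cells of a type and more RNA per cell cannot be told apart.

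**Figure D1:**
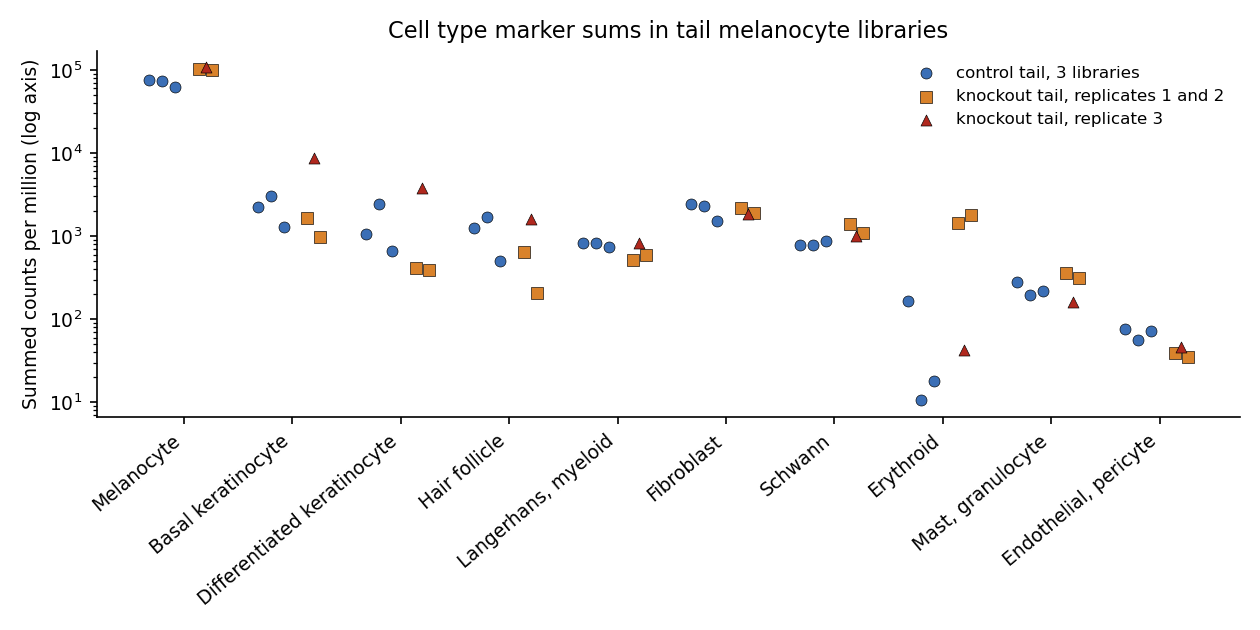
Sums of marker genes of melanocytes and of other cell types in each tail library, as CPM on a log axis, with 1 point per library, shape and colour by control, knockout replicates 1 and 2 and knockout replicate 3. Melanocyte markers lie between 61875 and 107529 in the 6 libraries, while the erythroid sum separates knockout replicates 1 and 2 and the basal keratinocyte sum separates knockout replicate 3.

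The targeted gene did not show a loss in these cells. Normalised counts of Spry1 were 1510, 1074 and 1285 in control replicates 1 to 3, and 3590, 1758 and 587 in knockout replicates 1 to 3. Replicates 1 and 2 of the knockout lay above every control library and replicate 3 below every one. The deposited level was 10.48 ± 0.18 in controls and 10.95 ± 0.71 in knockouts (SD, n = 3), a two-sided exact permutation p of 0.5, where 0.1 is the smallest that 3 against 3 libraries can give. A count over the whole gene also takes in exons outside any deleted part, and the Cre is not aimed at melanocytes, so these values do not check the labels. The other Sprouty and Spred genes, which encode related inhibitors of the same pathway, spread as widely. Spry2 had normalised counts of 3377, 1734 and 7457 in controls and 3728, 3925 and 1377 in knockouts, and Spred1 had 3863, 2348 and 3397 against 3297, 5834 and 2709. None of the 6 members of this family was separated by group on both scales, where 5.29% of all genes were separated upward and 6.82% downward. At those shares few or none of 6 genes would be separated.

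The clearest differences were higher transcripts of interferon-induced genes and of Selenop in knockout tail melanocytes. The pigment enzyme Tyrp1 was called higher with the set as a term but not with the removed shift put back. The same held for Ifitm3 and Oas1a among the interferon-induced genes. With group as the only term, limma called 0 of 16299 genes at an adjusted p under 0.05, and 814 genes (4.99%) had an unadjusted p under 0.05, 379 of them higher (2.33%) and 435 lower (2.67%). With the set as a second term, limma called 10 genes, 7 higher (0.0429% of genes tested) and 3 lower (0.0184%). Of the 7 higher genes, Ifit3, Ifit3b, Ifitm3, Oas1a and Usp18 are interferon-induced, and the other two are Selenop and Tyrp1. The 3 lower genes are Syt5, Gm11175 and 6330408M09Rik. These calls rested on every tail library: none remained when any 1 of the 6 tail libraries was left out, although all 10 kept their sign. Adjusted p-values of the 10 then lay between 0.10 and 0.37 in limma. None of the 10 remained without back replicate 3 either, while 5 remained without back replicate 1 and 6 without back replicate 2. All 6 library values were separated by group for each of the 10, as they were for 5.29% of all genes in the higher direction and 6.82% in the lower, counted where both the deposited values and the normalised counts did not overlap.

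Ifit3 and Ifit3b encode closely related members of the IFIT family of antiviral proteins, and lie close together on chromosome 19. Ifit3 (chr19:34583531-34588731, plus strand, build GRCm38) had normalised counts of 3522, 2612 and 2883 in control replicates 1 to 3 and 26611, 37655 and 54325 in knockout replicates 1 to 3. Every knockout library lay several fold above every control. The mean normalised count was 13.2-fold higher in the knockout, and the set-term difference was 3.45 ± 0.35 (SE, limma adjusted p = 0.045). Ifit3b (chr19:34607970-34613401, plus strand) had 1399, 918 and 1555 against 8727, 12701 and 18223, with a set-term difference of 2.79 ± 0.32 (limma adjusted p = 0.048). The groups were again apart in every library. Because the 2 genes are near-identical copies, the way reads were shared between them is uncertain.

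Ifitm3, which encodes a membrane protein that blocks entry of viruses from endosomes, lies at chr7:141009586-141010770 on the minus strand. Its normalised counts were 1776, 1112 and 683 in controls and 9851, 14274 and 7420 in knockouts, with the lowest knockout library far above the highest control. The set-term difference was 3.02 ± 0.31 (limma adjusted p = 0.045). Oas1a encodes an enzyme that makes a short oligoadenylate, the activator of RNase L, when it meets double-stranded RNA. It was close to unseen in controls, with normalised counts of 0, 3 and 3, and had 1918, 2650 and 582 in knockouts. Replicate 3 was the lowest knockout library for Oas1a. Its set-term difference of 3.25 ± 0.37 (limma adjusted p = 0.045) comes from a group near 0, so no fold is given, and the gene has near-identical neighbours.

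Usp18 encodes a protease that removes Isg15 from proteins and also holds back signalling at the interferon receptor. At chr6:121245906-121270917 on the plus strand, it had normalised counts of 382, 191 and 180 in controls and 3933, 5894 and 5160 in knockouts. The 3 knockout libraries were close to each other and stood far above the controls. The mean was 19.9-fold higher, and the set-term difference was 3.12 ± 0.29 (limma adjusted p = 0.043). The difference from controls was 3.04 in knockout replicates 1 and 2 and 3.13 in replicate 3.

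Selenop and Tyrp1 were also called with the set as a term. Selenop, on chromosome 15 (chr15:3268547-3280508), encodes a secreted selenoprotein that carries selenium between tissues. Normalised counts were 45542, 36984 and 48129 in controls and 147234, 172262 and 178829 in knockouts, a 3.81-fold higher mean with a set-term difference of 1.80 ± 0.16 (limma adjusted p = 0.043). The spread within each group was small beside the gap between them. Tyrp1, on chromosome 4 (chr4:80834123-80851719, plus strand), encodes an enzyme and stabilising protein of eumelanin synthesis in the melanosome. Its normalised counts were 611229, 487911 and 534808 in controls and 1147338, 1089160 and 2205193 in knockouts. Every knockout library was above every control, and replicate 3 was the highest. The set-term difference was 0.99 ± 0.11 (limma adjusted p = 0.048).

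The 3 called genes that were lower in knockouts had low counts in controls and were nearly unseen in knockouts. Syt5, which encodes a synaptotagmin, a calcium sensor of vesicle release, had normalised counts of 251, 469 and 265 in controls and 0, 0 and 0 in knockouts. A count of 0 allows up to 3 counts in each library, so the mean was at least 117-fold lower. Gm11175, annotated as an antisense RNA at chr8:70699162-70700080, had 287, 237 and 335 in controls and 2, 0 and 0 in knockouts. 6330408M09Rik, a noncoding RNA annotated at a bidirectional promoter at chr16:23127793-23128922, had 375, 404 and 485 against 0, 0 and 61. Their set-term differences were -1.55 ± 0.17, -1.40 ± 0.15 and -1.71 ± 0.19 (limma adjusted p = 0.045 for each). The strand setting of the counting is not given in the sources used here, so reads of the noncoding RNAs and of genes on the opposite strand cannot be told apart.

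Putting the removed shift back in the group-only fit gave 8 calls, 5 higher (0.0307%) and 3 lower (0.0184%). Ifit3, Ifit3b, Usp18 and Selenop were among the higher calls, and the fifth was C4b, a complement component described below. Syt5 remained among the lower calls, and the other two were Tmem151a and Prl2c5, named after their values were seen. Tmem151a, a membrane protein gene, had normalised counts of 3079, 4591 and 3127 in controls and 0, 225 and 9 in knockouts. Prl2c5, a gene of the prolactin family with close paralogs, had 166721, 182634 and 130454 against 23624, 36743 and 15429. Both genes were far lower in every knockout library than in every control. Tyrp1 was not called with the shift put back (limma adjusted p = 0.46), where its difference was 1.37 ± 0.37. Ifitm3, Oas1a, Gm11175 and 6330408M09Rik were not called there either, with limma adjusted p of 0.078, 0.21, 0.057 and 0.22.

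A fit limited to the 6 tail libraries with the removed shift put back, chosen after the data were seen, called 14 genes higher (0.0859% of genes tested) and 4 lower (0.0245%) in limma. The higher genes included Ifit3, Ifit3b, Ifitm3, Usp18, Rsad2, Irgm1, Igtp, Tapbp, C4b, Selenop, Mamdc2, Synpr and Gm8615, and the lower genes were Tmem151a, Prl2c5, Homer2 and Tsix. The genes described next were chosen after their values were seen. Rsad2, which encodes the antiviral enzyme viperin, had normalised counts of 521, 189 and 215 in controls and 2819, 4796 and 5377 in knockouts. Synpr, the gene of the vesicle protein synaptoporin, had 2552, 1850 and 1628 against 7930, 8534 and 8819. Both were above every control in each knockout library. Homer2, a scaffold protein gene, had 6911, 7471 and 7207 against 2240, 1944 and 1756, with a narrow spread in each group. Gm8615, a transcribed pseudogene, had 154, 79 and 133 against 1695, 1581 and 1848, and its reads may be shared with the parent gene. Tsix, the antisense partner of Xist, had 7252, 7762 and 2122 against 0, 0 and 5. Knockout replicate 3 held Xist and nearly no Tsix, and with the strand setting not known reads of the pair cannot be told apart.

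**Figure D2:**
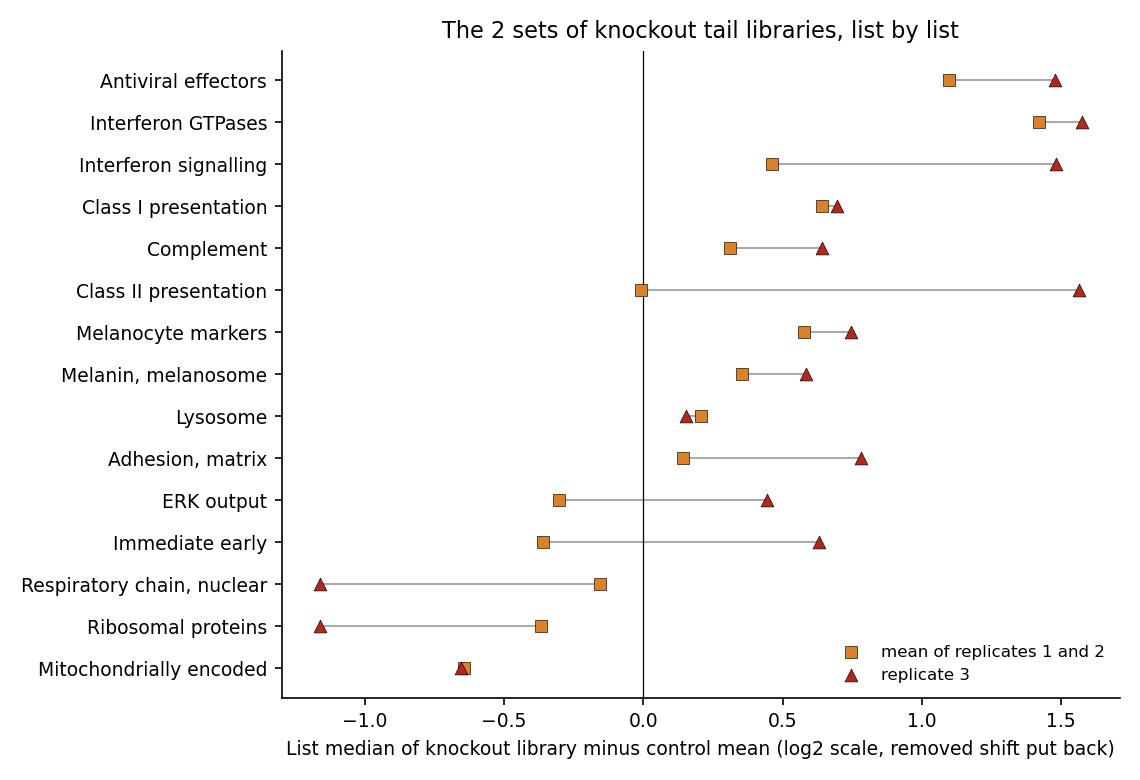
List medians of the difference from the control mean on the log2 scale with the removed shift put back, with 1 row per gene list, a square for the mean of knockout replicates 1 and 2, a triangle for knockout replicate 3 and a line joining them. The ERK output list lies at -0.30 and 0.45, on either side of 0, and ribosomal protein genes lie at -0.37 and -1.16.

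Promoter sequence was examined because many of the genes named above are known targets of one regulator. The letters GAAA, 2 bases of any kind and GAAA again, the core of the interferon-stimulated response element, were searched on both strands in RefSeq promoter windows (build GRCm38.p6, from 250 bases before to 50 bases after the annotated start). They were present in 1079 of 27025 genes with a window (3.99%), and in 3.61% of the genes of the deposited table with one. Of 79 genes in the 3 lists of interferon-induced antiviral effectors, interferon-inducible GTPases and interferon signalling genes, 64 had a window and 32 of these (50%) held the motif. By list, it was in 15 of 29 antiviral effectors, 10 of 12 GTPases and 7 of 23 signalling genes. A longer form that goes on with CT, and so contains the shorter one, was in 0.303% of all genes with a window and in 19 of the 64 (29.7%). None of 27 genes of melanin synthesis and the melanosome with a window held the shorter form. It was in 7 of 59 ribosomal protein genes (11.9%), 5 of 20 class I presentation genes (25%) and 1 of 6 complement genes. A match describes the letters of this window and says nothing about binding in these cells.

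The 200 bases before the start are shown for some described genes with 2 or more matches, called or not. This lets the arrangement of the element be compared. Ifit1 also held 2 matches, and Rsad2, Igtp, Gbp7, Irgm2, B2m and H2-T23 held 1 each, and these are not shown. No match was in the windows of Ifit2, Irf7, Trim25, Tapbp, Psmb8 and Psmb9. Capitals mark each match of 10 bases, as GAAA at both ends or, for a match on the other strand, TTTC at both ends, and overlapping matches run together. The stretches are Gbp3 (chr3:142559844-142560043, plus strand), Ifit3 (chr19:34583329-34583528, plus strand), Ifit3b (chr19:34607757-34607956, plus strand), Irgm1 (chr11:48871421-48871620, minus strand), Isg15 (chr4:156200819-156201018, minus strand) and Oas1a (chr5:120907526-120907725, minus strand).
Gbp3: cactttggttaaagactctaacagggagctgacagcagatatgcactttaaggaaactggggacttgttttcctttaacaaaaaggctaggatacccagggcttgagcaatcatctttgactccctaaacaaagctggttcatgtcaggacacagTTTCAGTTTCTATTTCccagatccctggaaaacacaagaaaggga
Ifit3: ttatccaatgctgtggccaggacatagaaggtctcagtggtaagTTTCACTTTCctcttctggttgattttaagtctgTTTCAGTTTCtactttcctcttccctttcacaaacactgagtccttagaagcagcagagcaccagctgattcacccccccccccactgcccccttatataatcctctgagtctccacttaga
Ifit3b: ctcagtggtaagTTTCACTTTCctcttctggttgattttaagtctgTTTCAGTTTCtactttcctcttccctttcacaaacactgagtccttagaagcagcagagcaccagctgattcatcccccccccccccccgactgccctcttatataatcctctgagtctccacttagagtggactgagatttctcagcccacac
Irgm1: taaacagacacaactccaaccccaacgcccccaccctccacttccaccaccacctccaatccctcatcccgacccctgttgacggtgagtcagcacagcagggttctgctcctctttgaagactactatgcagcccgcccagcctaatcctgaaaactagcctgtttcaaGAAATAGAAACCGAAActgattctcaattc
Isg15: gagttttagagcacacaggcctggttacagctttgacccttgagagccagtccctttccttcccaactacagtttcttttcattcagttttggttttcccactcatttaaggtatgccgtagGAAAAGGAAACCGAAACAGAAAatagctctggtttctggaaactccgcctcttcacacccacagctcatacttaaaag
Oas1a: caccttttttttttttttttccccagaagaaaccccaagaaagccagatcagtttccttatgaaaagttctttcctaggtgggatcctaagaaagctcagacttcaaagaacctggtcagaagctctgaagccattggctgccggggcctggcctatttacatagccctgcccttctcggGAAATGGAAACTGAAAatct

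Counted with -1 as the base before the start, the first letters of the matches lay at -156 and -122 in Ifit3 and at -188 and -154 in Ifit3b. The windows of these 2 genes share an identical stretch of 169 bases, so their 4 matches are copies of 2. In Isg15, 3 overlapping matches began at -78, -72 and -66, and in Irgm1 2 overlapping matches began at -30 and -24. Oas1a had matches at -20 and -14, and Gbp3 at -45 and -39. Ifitm3 held the motif after its start, at positions 3 and 20, and Igtp held it at -34. Usp18 and Rtp4 had no window in the table.

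Antiviral effectors, the proteins that act directly on viral RNA, entry or replication, were higher as a group. Of 39 members, 37 had a positive group-only difference, against 44.4% of all genes, with a median of 0.95 against -0.045 over all genes. In 23 of the 39 (59.0%) every knockout library lay above every control, and in none below, where 5.29% of all genes were separated upward. The set-term fit called 4 of the 39 as higher, Ifit3, Ifit3b, Ifitm3 and Oas1a. The median difference from controls was 1.10 in knockout replicates 1 and 2 and 1.48 in replicate 3. How these values relate to the Y-linked, erythroid and keratinocyte transcripts of the libraries was not tested. The list was chosen with earlier results of these data known.

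Ifit1, which binds viral RNA that lacks a cap modification, had normalised counts of 603, 4 and 53 in controls and 6512, 4406 and 12080 in knockouts. Its group-only difference of 3.18 was the largest of the list, with no call in either fit. Rtp4, a chaperone gene that interferon induces, had 197, 329 and 146 against 2440, 9064 and 6040. Both genes were separated by group in every library. Ifit2, a relative of Ifit1, was closer to the controls, at 331, 203 and 699 against 721, 950 and 882, with a group-only difference of 0.34.

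All 15 interferon-inducible GTPases, large guanylate-binding and smaller immunity-related enzymes that act on the membranes around intracellular microbes, had positive differences. The median was 0.82, and 7 of the 15 (46.7%) were separated upward in every library, against 5.29% of all genes. Igtp had normalised counts of 250, 403 and 176 in controls and 2244, 2233 and 2391 in knockouts, an 8.28-fold higher mean with little spread among knockouts. Irgm1 had 1321, 1682 and 950 against 9394, 8810 and 7057, and Gbp7 had 816, 1000 and 999 against 3242, 4337 and 7596. Each was clear of the controls in every library. Gbp3 had 120, 162 and 185 against 1249, 2777 and 6220 and Gbp6 had 391, 127 and 0 against 1693, 1595 and 3634, both highest in replicate 3. Irgm2 was the uneven member, at 108, 86 and 3 in controls and 30, 1074 and 1688 in knockouts, so its groups overlapped. No GTPase was called in the group-only or set-term fit.

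**Figure D3:**
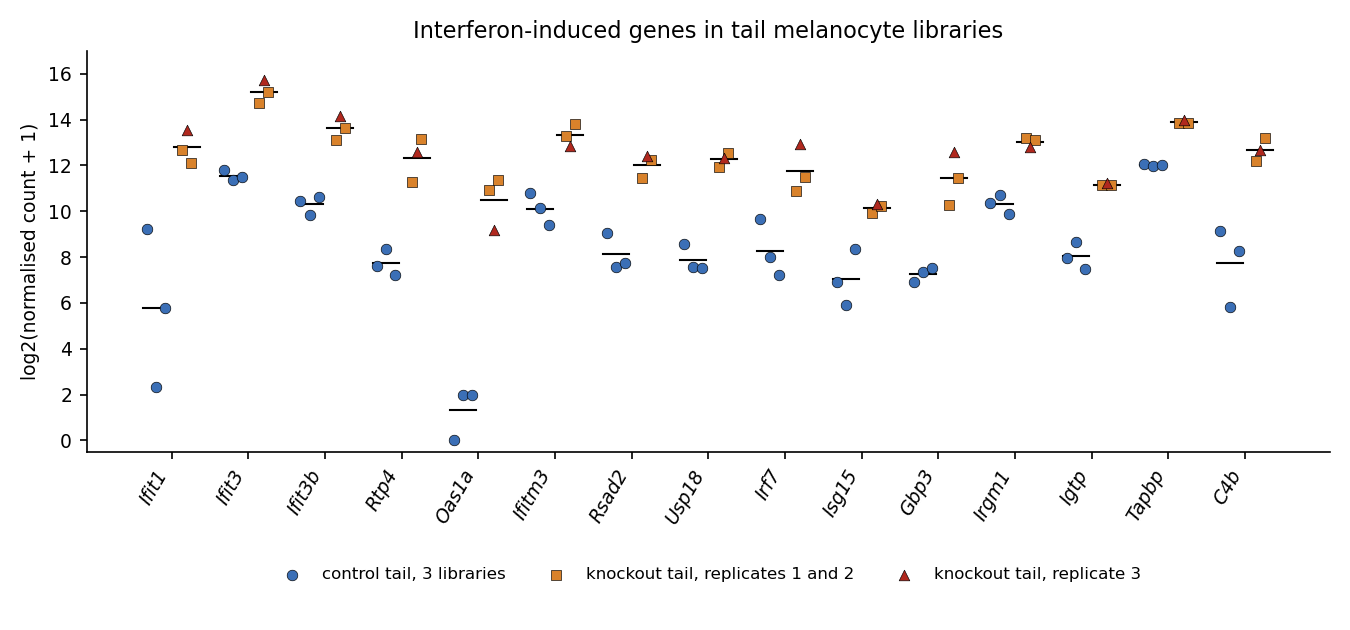
Log2 of the normalised count plus 1 of named interferon-induced genes in each tail library, with 1 point per library, shape and colour by control, knockout replicates 1 and 2 and knockout replicate 3, and a bar at the group mean on the plotted scale. Usp18 has normalised counts of 180 to 382 in controls and 3933 to 5894 in knockouts, and Oas1a has 0 to 3 against 582 to 2650.

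Genes of interferon signalling were mixed. Of 25 members, 18 had a positive group-only difference, with a median of 0.31. In 9 every knockout library was above the controls and in 1 every one was below, where 5.29% and 6.82% of all genes were so separated. Isg15, a ubiquitin-like modifier, had normalised counts of 118, 59 and 323 against 960, 1204 and 1258. Irf7, a factor that amplifies interferon production, had 801, 253 and 146 against 1886, 2889 and 7762. Both were separated in every library and neither was called. Trim25, an activator of RNA sensing, had 501, 85 and 10 against 1000, 1655 and 1657.

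The receptors and the kinases attached to them showed no such separation. Of 6 interferon ligand and receptor genes in the table, 4 had a positive difference (median 0.16). None was separated by group on both scales, where 5.29% of all genes were separated upward and 6.82% downward. At those shares few or none of 6 genes would be separated, so this count does not set the list apart from all genes. Ifnar1 had normalised counts of 1716, 779 and 2241 in controls and 4241, 2117 and 3568 in knockouts, and Ifnar2 had 2115, 2933 and 1301 against 3090, 2668 and 2612. The groups overlapped for both. Ifngr1, a chain of the interferon-gamma receptor, had 3171, 2578 and 3351 against 1658, 1660 and 3011, with replicate 3 among the controls. Jak1 had 2910, 1959 and 2126 against 1607, 2858 and 5707, and Tyk2 had 764, 615 and 155 against 596, 129 and 1998. These kinases overlapped between the groups, with replicate 3 the highest library for each.

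Sensors of nucleic acid start interferon production. Of 13 members, 10 had a positive difference (median 0.47), and none was called. Among them 1 was separated upward and 1 downward, where 5.29% and 6.82% of all genes were. Ddx58, the gene of the RNA sensor RIG-I, had normalised counts of 57, 242 and 3 in controls and 586, 906 and 813 in knockouts. Ifih1, the gene of MDA5, had 291, 203 and 0 against 899, 1239 and 2428, and Dhx58 had 23, 151 and 0 against 316, 483 and 810. In normalised counts every knockout library was above every control for these 3 genes, but the deposited values overlapped. Tlr3, an endosomal receptor for double-stranded RNA, had 762, 465 and 573 against 908, 1664 and 2618, and was the member separated upward on both scales.

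Class I antigen presentation, which displays peptides from inside the cell to T cells, was higher in most members. Of 26 members, 21 had a positive difference (median 0.47), against 44.4% of all genes. Separated upward were 9 (34.6%) and downward none, against 5.29% and 6.82% of all genes. Tapbp, the tapasin gene that bridges class I molecules to the peptide transporter, had normalised counts of 4277, 4037 and 4105 in controls and 14649, 14618 and 15940 in knockouts, a 3.64-fold higher mean. All knockout libraries lay far above all controls, and its set-term difference of 1.78 ± 0.35 had a limma adjusted p of 0.22. With the shift put back and only the 6 tail libraries in the fit, the difference was 1.75 ± 0.17 (limma adjusted p = 0.031). H2-T23 had 3792, 2074 and 1150 against 7882, 10831 and 11853, with close paralogs that make the assignment of reads uncertain. B2m, the invariant light chain, had 75391, 88548 and 39400 against 126595, 166646 and 82358, where replicate 3 lay below the highest control. Psmb8 and Psmb9, catalytic subunits of the immunoproteasome, had 687, 470 and 143 against 1169, 2241 and 1319, and 147, 192 and 7 against 744, 608 and 365. Psmb9 was separated on both scales and Psmb8 only in normalised counts.

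Class II genes, which belong to antigen-presenting cells, followed replicate 3 alone. Cd74 had normalised counts of 4, 134 and 2 in controls and 107, 7 and 5137 in knockouts, and H2-Ab1 had 80, 0 and 0 against 4, 3 and 2259. The median difference of the 8 class II genes was -0.0083 in replicates 1 and 2 and 1.56 in replicate 3. Ptprc, the pan-leukocyte gene, was at 13, 8 and 0 in controls and 4, 5 and 0 in knockouts. The 13 markers of Langerhans and myeloid cells analysed summed to 736 to 831 CPM in controls, and to 517, 595 and 818 in knockout replicates 1, 2 and 3. The part of such cells in the interferon and class I values was not tested.

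Complement genes had a positive difference in 9 of 11 members, against 44.4% of all genes, with a median of 0.38. Separated upward were 3 (27.3%, against 5.29% of all genes). C4b, a component of the classical and lectin pathways with a near-identical copy, had normalised counts of 559, 55 and 304 in controls and 4717, 9321 and 6524 in knockouts, a 22.4-fold higher mean. All 3 knockout libraries were far above the controls. The set-term difference was 3.43 ± 0.46 (limma adjusted p = 0.077), and with the shift put back in the group-only fit it was 3.43 ± 0.43 (limma adjusted p = 0.0498). C2, the protease that acts beside C4, had 8897, 10928 and 7288 against 18413, 18847 and 22965. The start of the pathway was close to unseen, with C1qc at 60, 4 and 199 in controls and 0 in each knockout library.

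In the group-only fit, chemokines and cytokines stayed near the median of all genes as a list. Their differences were positive in 14 of 27, with a median of 0.061. With the removed shift put back 19 were positive, against 49.8% of all genes, and the median was 0.29. That median was 0.0055 in replicates 1 and 2 and 0.68 in replicate 3, so its size depended on the library. Only 4 of the 27 were above the median level of the table, and differences of genes at low counts are compressed. Cxcl10, an interferon-induced chemokine that draws T cells, was an exception in normalised counts, at 317, 72 and 257 in controls and 1976, 1110 and 1671 in knockouts. Its deposited values overlapped, and its group-only difference was 1.09. Cxcl9, which is induced by interferon-gamma, was at 0 in all controls and at 98, 285 and 0 in knockouts. Cxcl14, a chemokine of the epidermis, overlapped between groups, at 12407, 15139 and 17747 against 14942, 12410 and 12285. T cell markers were near 0 throughout, with sums of at most 6.10 CPM in any tail library.

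**Figure D4:**
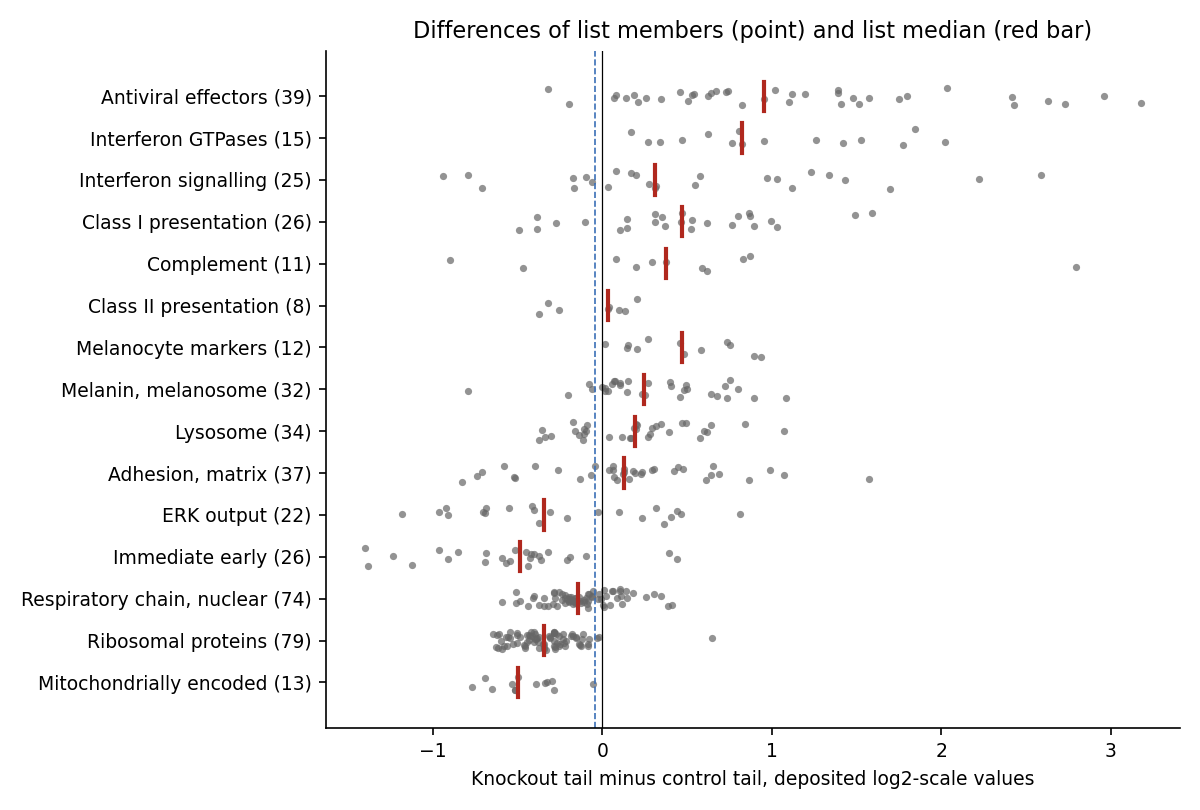
Group-only difference, knockout minus control, of each member of the described lists, with 1 point per gene, a bar at the list median and a dashed line at the median of all genes (-0.045). Antiviral effectors have a median of 0.95 and ribosomal protein genes one of -0.35.

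Most pigment genes had positive differences. All 12 melanocyte markers had positive group-only differences, with a median of 0.47, and 6 of them were separated upward in every library. Of 32 genes of melanin synthesis and the melanosome, 27 had a positive difference (median 0.24), and 10 (31.3%) were separated upward and none downward, against 5.29% and 6.82% of all genes. The set-term fit called 1 of them, Tyrp1. With the shift put back, 10 of the 12 markers and 25 of the 32 melanosome genes were positive, against 49.8% of all genes. The summed markers were also a larger part of each knockout library, as given above, and how much of each difference follows the share of melanocyte RNA was not tested.

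Pmel, the fibril protein on which melanin is laid down, had normalised counts of 1196395, 1452704 and 724814 in controls and 1816471, 1808560 and 2185891 in knockouts. Oca2, a melanosomal ion transporter gene, had 47053, 36313 and 44879 against 85274, 72726 and 112726, and Slc24a4, a potassium-dependent sodium and calcium exchanger gene, had 12986, 9351 and 11341 against 26411, 21682 and 29366. These 3 genes were separated in every library, with differences of 0.74, 0.75 and 1.08 in the group-only fit and no call. The other 2 enzymes of the pathway behaved differently. Dct had 1698144, 1778230 and 1555719 in controls and 2216234, 2162078 and 808454 in knockouts, so replicate 3 was the lowest of all. Tyr, the rate-limiting enzyme, had 159919, 152097 and 231246 against 191720, 189768 and 416374, with overlapping groups.

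**Figure D5:**
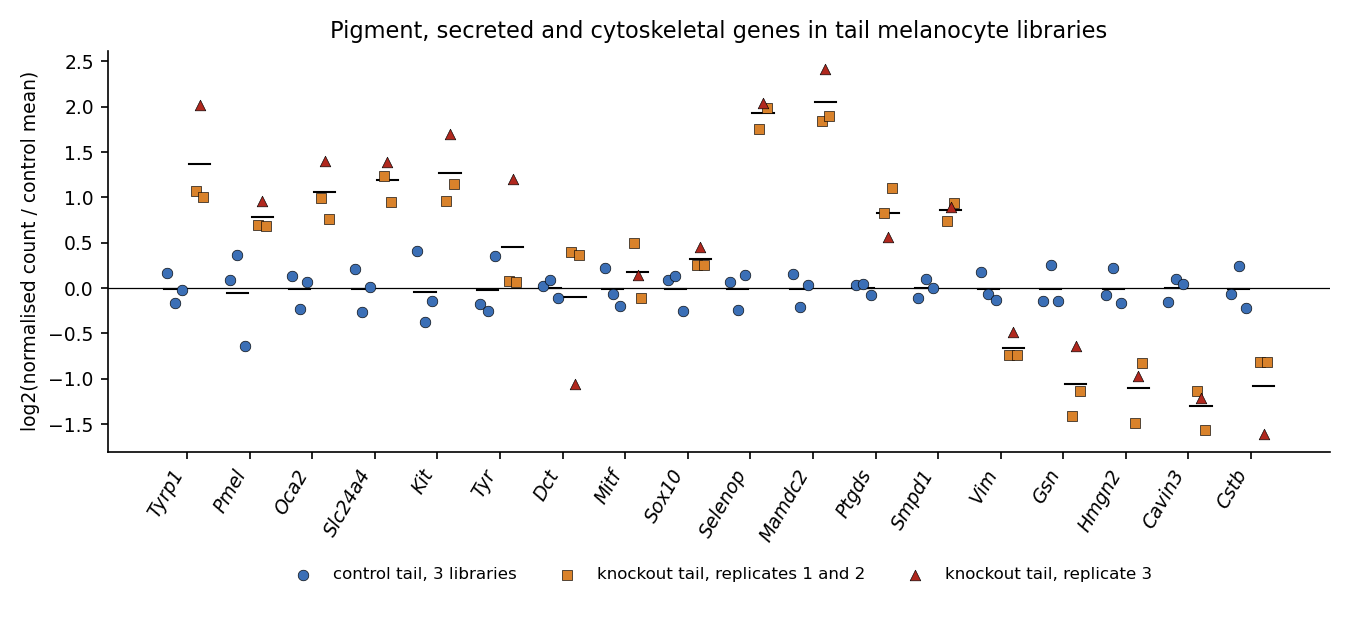
Log2 ratio of the normalised count to the control mean for pigment genes and for named genes that were higher or lower in knockouts, with 1 point per tail library, shape and colour by control, knockout replicates 1 and 2 and knockout replicate 3, and a bar at the group mean on the plotted scale. All knockout points of Tyrp1 and Mamdc2 lie above the controls and those of Vim and Gsn below them, while Dct replicate 3 of the knockout, at 808454 normalised counts, is the lowest of its gene.

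Promoters of several pigment genes carry a known element, TCATGTG, bound by Mitf, the master regulator of melanocytes. A search for these letters on either strand, chosen after the values were seen, found them in 1165 of 27025 genes with a window (4.31%) and in 7 of the 27 melanosome genes with one (25.9%): Dct, Hps1, Slc24a5, Slc7a11, Trpm1, Tyr and Tyrp1. The 200 bases before the start are shown for Tyrp1 (chr4:80834013-80834212, plus strand) and Tyr (chr7:87493513-87493712, minus strand), the called enzyme and one that was not, with the match in capitals.
Tyrp1: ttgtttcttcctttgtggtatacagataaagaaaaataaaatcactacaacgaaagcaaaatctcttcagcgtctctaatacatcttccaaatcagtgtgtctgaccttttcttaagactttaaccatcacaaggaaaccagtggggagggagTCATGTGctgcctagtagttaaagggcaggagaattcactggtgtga
Tyr: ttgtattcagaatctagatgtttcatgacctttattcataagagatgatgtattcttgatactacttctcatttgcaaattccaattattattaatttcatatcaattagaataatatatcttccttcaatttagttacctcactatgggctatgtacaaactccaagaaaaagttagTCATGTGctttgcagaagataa

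The match began at -47 in Tyrp1 and at -22 in Tyr. Mitf itself overlapped between the groups, with normalised counts of 10400, 8557 and 7800 in controls and 12567, 8282 and 9879 in knockouts. Sox10, another factor of the lineage, had 21823, 22648 and 17276 against 24582, 24478 and 28237, slightly above the controls in each library but overlapping in the deposited values. Pax3 had 15383, 13481 and 14229 against 18820, 15585 and 15860. Over 16 lineage factors 8 had a positive difference and the median was 0.00. Separated upward were 2 (12.5%) and downward 1 (6.25%), against 5.29% and 6.82% of all genes. Tfap2b, an AP-2 family factor, was the member separated downward, at 24032, 27919 and 23756 against 12371, 16978 and 7427, and Zeb1 was among those separated upward, at 382, 313 and 629 against 1084, 870 and 709.

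Receptors through which keratinocytes reach melanocytes were mixed, with 9 of 18 positive, a median of -0.020 and 3 separated upward (16.7%, against 5.29% of all genes). With the shift put back 12 were positive with a median of 0.23. The median was -0.23 in replicates 1 and 2 and 1.20 in replicate 3, so its sign depended on the library. Kit, the receptor for Kit ligand, had normalised counts of 22118, 12819 and 15066 in controls and 32525, 37004 and 54245 in knockouts, and all knockout libraries lay above all controls. Met, the receptor for hepatocyte growth factor, had 2185, 2544 and 3194 against 4399, 3674 and 14674, and Axl had 320, 209 and 65 against 970, 390 and 1402. Both were separated, with replicate 3 highest. Ednrb, an endothelin receptor, had 36142, 37543 and 22361 against 47515, 58165 and 90708, higher in normalised counts in each library but overlapping in deposited values. Mc1r, the melanocortin receptor, had 67038, 71415 and 38209 against 33133, 53779 and 33530. Its groups overlapped, with a group-only difference of -0.18 that was 0.11 without knockout replicate 1.

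Genes that report ERK activity, the pathway that Sprouty 1 restrains, were not higher as a list. Of 22 members, 8 had a positive difference (median -0.34), and 1 was separated in each direction, a share no larger than the 5.29% upward and 6.82% downward of all genes. Dusp4, a phosphatase of ERK that the pathway itself induces, had normalised counts of 3042, 2865 and 3291 in controls and 6968, 4947 and 6821 in knockouts, and was the one separated upward. Dusp2 had 1973, 3017 and 1510 against 509, 1105 and 62, and was the one separated downward. Ccnd1, the cyclin D1 gene, had 19851, 15754 and 19679 against 9457, 8938 and 19625, with replicate 3 level with the controls. The median of the list was -0.30 in replicates 1 and 2 and 0.45 in replicate 3, so its sign depended on the library.

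Of 20 genes of FGF ligands, receptors and adaptors, 9 had a positive difference, against 44.4% of all genes, and the median was -0.063. With the removed shift put back, the median was -0.028 in replicates 1 and 2 and 0.52 in replicate 3. Separated downward were 3 (15%, against 6.82% of all genes). Fgf2 was one of these, with normalised counts of 248, 243 and 488 in controls and 104, 78 and 95 in knockouts. Fgfr1 had 1160, 514 and 897 against 532, 2598 and 3265, with overlapping groups. Gab1, an adaptor of receptor kinases, had 463, 125 and 276 against 1073, 660 and 1272, higher in normalised counts but overlapping in the deposited values, with a group-only difference of 0.37 that was -0.039 without knockout replicate 1. No gene of the ERK or FGF lists was called in the group-only or set-term fit.

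By smallest group-only p among genes above the median level of the table, and among genes separated by group and with the same sign in both fits, the 12 higher named genes were Tyrp1, Mamdc2, Smpd1, Ptgds, Kcnj13, Ifit3b, Ifit3, Selenop, Tollip, Krt6b, Usp18 and Erlin2. In all, 724 higher and 862 lower genes met these conditions, and their separation was part of the rule. Mamdc2, a gene of an extracellular protein with MAM domains, had normalised counts of 3108, 2421 and 2852 in controls and 10044, 10374 and 14903 in knockouts, a 4.21-fold higher mean. Kcnj13, a potassium channel gene, had 2743, 3201 and 2888 against 7177, 10142 and 8040. Smpd1, the lysosomal acid sphingomyelinase gene, had 19211, 22270 and 20804 against 34626, 39875 and 38616. These 3 genes had little spread within a group. None was called in the group-only or set-term fit, with a set-term adjusted p of 0.084 for Mamdc2 in limma, and Mamdc2 was among the calls in the 6 tail libraries given above. Ptgds, a prostaglandin D synthase gene, had 193742, 194914 and 180080 against 336278, 408625 and 279901. Tollip, an adaptor of Toll-like receptor signalling, and Erlin2, an endoplasmic reticulum membrane protein gene, had 5519, 4680 and 4484 against 10270, 10834 and 12484, and 2890, 1472 and 2402 against 6209, 6140 and 10851. Krt6b, a keratin gene of activated epidermis, had 1036, 1063 and 244 against 4429, 4888 and 112232, so most of its mean came from replicate 3, the library with the high keratinocyte markers.

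The 12 lower named genes were Malat1, Hmgn2, Mid1ip1, Cavin3, Vim, Dusp1, S100a13, Klf4, Cstb, Mrps18c, Gsn and Gnpda1. Gsn, the gelsolin gene of actin severing, had normalised counts of 91219, 120405 and 91181 in controls and 38068, 45910 and 65049 in knockouts. Vim, the vimentin gene, had 85741, 72693 and 69514 against 45512, 45419 and 54341. Cavin3, a caveola coat gene, had 2777, 3320 and 3190 against 1409, 1049 and 1332. These cytoskeletal and membrane genes were lower in every knockout library. Gnpda1, an enzyme of glucosamine metabolism, had 6452, 5292 and 7525 against 2455, 2237 and 2755, and Hmgn2, a nucleosome-binding protein gene, had 8694, 10685 and 8204 against 3272, 5171 and 4706. Malat1, a nuclear noncoding RNA, had 402855, 366549 and 460305 against 263729, 328733 and 131447, lowest in replicate 3. Dusp1 and Klf4 were separated only in the deposited values: Dusp1 had 13231, 22133 and 18179 against 6412, 10112 and 32785, where replicate 3 was the highest library of all.

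Adhesion and matrix genes had 26 of 37 positive differences, against 44.4% of all genes, with a median of 0.13. With the removed shift put back, the median was 0.14 in replicates 1 and 2 and 0.78 in replicate 3. Separated upward were 7 (18.9%) and downward none, against 5.29% and 6.82% of all genes. Itga5, a fibronectin receptor subunit, had normalised counts of 1536, 1154 and 1422 in controls and 4004, 2918 and 5014 in knockouts, and its partner Itgb1 had 11667, 9682 and 13293 against 18240, 24831 and 29952. Cdh1, the E-cadherin gene by which melanocytes hold to keratinocytes, had 7848, 5054 and 5680 against 10895, 10844 and 9579, and Cdh3, the P-cadherin gene, had 16891, 7610 and 13199 against 31132, 27162 and 40128. In normalised counts each knockout library was above each control for these 4 genes, which keratinocytes also express, and the part of keratinocyte RNA in them was not tested. Lysosome genes had 22 of 34 positive differences with a median of 0.19, and 7 (20.6%) were separated upward and 1 (2.94%) downward. Gaa, the acid alpha-glucosidase gene, had 3620, 4466 and 3186 against 11359, 9950 and 10491, and Hexa had 11339, 10348 and 8561 against 19325, 16224 and 18707. Both were clear of the controls, whereas Lamp1 had 66539, 74348 and 60120 against 85066, 81804 and 3134, where replicate 3 was far below every other library.

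Ribosomal protein genes were lower almost throughout. Of 79 members, 78 had a negative group-only difference, against 55.6% of all genes, with a median of -0.35, and 35 (44.3%) were separated downward and none upward, where 6.82% of all genes were separated downward. Rps27a had normalised counts of 8236, 11966 and 9346 in controls and 5035, 6694 and 4526 in knockouts, and Rpl34 had 10208, 12275 and 10506 against 6615, 7278 and 2940. The size of the difference varied with the library, since the median was -0.37 in replicates 1 and 2 and -1.16 in replicate 3. Rpl10 overlapped between groups, at 14158, 17338 and 10205 against 12372, 14412 and 16808. The exception with a positive difference, Rpl29, rested on 1 control library, with 10847, 12545 and 896 against 8240, 9833 and 7264, and its difference of 0.65 was -0.41 without control replicate 3. Ribosomal genes have many processed pseudogene copies, so reads shared with these are uncertain.

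Transcripts of the mitochondrial genome had negative differences in all 13 members, against 55.6% of all genes, with a median of -0.50. Separated downward were 5 (38.5%, against 6.82% of all genes). mt-Co1, a subunit of cytochrome oxidase, had normalised counts of 242066, 251741 and 324880 in controls and 156258, 191533 and 237643 in knockouts. mt-Nd2 had 21382, 22620 and 35957 against 16938, 12144 and 16302. Both were lower in each knockout library. Nuclear genes of the respiratory chain had 20 of 74 positive differences, against 44.4% of all genes, with a median of -0.15. Separated downward were 13 (17.6%, against 6.82% of all genes). Ndufv2, a complex I subunit gene, had 20188, 22547 and 21020 against 14808, 15303 and 9570. Their median was -0.16 in replicates 1 and 2 and -1.16 in replicate 3, so the size again varied with the library. No ribosomal, mitochondrial or respiratory chain gene was called in the group-only or set-term fit.

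Immediate early genes, which respond within minutes to growth signals and to cell handling, had a list median whose size depended on the shift and whose sign depended on the library. Of 26 members, 24 had a negative group-only difference, with a median of -0.48. With the removed shift put back, 15 were negative and the median was -0.13. The median was -0.36 in knockout replicates 1 and 2 and 0.63 in replicate 3. Fos, the founding member, had normalised counts of 144043, 239770 and 130074 in controls and 134217, 123965 and 273519 in knockouts, with overlapping groups. Atf3 had 1214, 7555 and 2291 against 631, 857 and 14329, lowest in replicates 1 and 2 and highest in replicate 3. Heat shock genes were divided in the same way, with medians of -0.065 and 0.74. Hspa1b had 1773, 3581 and 1069 against 1171, 1583 and 20210.

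In some other lists members lay on both sides of 0. Over all genes, 5.29% were separated upward and 6.82% downward. The cell cycle list had 3 members separated upward (8.33%) and 1 downward (2.78%). The sterol and fatty acid list had 4 (13.8%) and 3 (10.3%), and the antioxidant and selenoprotein list 3 (8.33%) in each direction. The separated genes named here are single members of these lists. Cell cycle genes had 13 of 36 positive differences with a median of -0.076, although Rrm2, a ribonucleotide reductase subunit gene, was separated upward at 2961, 2893 and 2333 in controls and 10741, 7057 and 5805 in knockouts. The cell cycle inhibitor Cdkn2b was separated downward, at 1827, 1949 and 1664 against 560, 265 and 1118. Sterol and fatty acid genes had 14 of 29 positive with a median of -0.094, which was -0.29 with the shift put back, and Abca1, a cholesterol exporter, was separated upward at 461, 353 and 311 against 1427, 3844 and 3057, while Fdps, an enzyme of isoprenoid synthesis, was separated downward at 32734, 40379 and 32707 against 16884, 17995 and 11699. Antioxidant and selenoprotein genes had 13 of 36 positive with a median of -0.15, which was -0.39 with the shift put back, while Selenop was called higher. Gsta4, a glutathione transferase gene, was separated upward at 465, 738 and 334 against 2173, 3546 and 3576, and Gpx1, a selenoprotein peroxidase gene, was separated downward at 45483, 54175 and 43720 against 34357, 43107 and 29783. Glycolysis genes had 15 of 28 positive with a median of 0.029.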

How the data were processed

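RNA of melanocytes sorted from mouse epidermis was extracted with Trizol and made into SMART-Seq libraries for paired-end sequencing, per the labels' protocols. DESeq2 and the build GRCm38 are named in the submitters' processing notes. For the aligner, the counter and the strand setting, nothing was given in the sources used here. For all samples the authors deposited 1 table of log2-scale values, 16299 genes by 9 libraries.

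The deposited values followed a variance-stabilising curve, on which a gene at 0 counts has 7.98. In every gene the mean of knockout tail replicate 3 and knockout back replicate 3 equalled that of the other 7 libraries, whereas the next best of the 255 possible pairs of sets missed this by up to 1.50. Undoing the shift and the curve gave counts for all 16299 genes, each within 0.0075 of a whole number. Symbols were matched to GENCODE vM21 for 15905 genes and to RefSeq for 277, and 117 were kept as deposited.

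Limma (version 3.58.1, R 4.3.3, mean-variance trend and robust moderation) was fitted to all 9 libraries, with group alone and with group and set. P-values were adjusted over all genes by the Benjamini-Hochberg method with a threshold of 0.05. Spry1 was tested by an exact permutation test. Promoter windows came from RefSeq. Alternatives covered the replicate block, the libraries in the fit, the shift, a filter on low values, moderation, array weights, quantile normalisation, voom on recovered counts and leaving out each library. The fits and the recovery were tested on simulated data. Members and lists were chosen with earlier results of these data known, so lists have counts and medians and no test.

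Named genes were those called in either fit, the 12 higher and 12 lower genes with the smallest group-only p above the median level that were separated in deposited values and had the same sign in both fits, up to 5 list members with the largest difference and up to 3 that define a list, and markers. Some genes are not reported here.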

Additional observations from a re-analysis of the deposited data

How the results depend on the processing

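Calls depended on the fit more than directions did. With group alone limma called 0 genes higher and 0 lower, and 814 genes had an unadjusted p under 0.05. Counts of calls were 7 and 3 with the set as a term, 5 and 3 with the removed shift put back, and 0 and 0 in the other planned settings, including the replicate block and each of the 9 fits that leave out 1 library, where 543 to 1160 genes had an unadjusted p under 0.05. In settings chosen after the data were seen, limma called 14 and 4 in the 6 tail libraries with the shift put back, 4 and 0 with voom on the counts of those libraries, and 0 and 0 in the tail libraries of the larger set. The 7 higher and 3 lower calls with the set as a term became 8 and 1 without the genes below the lower quartile of level, which left 7 of the 10 to be tested. They became 0 and 0 with voom, 0 and 0 without trend and robust moderation, and 0 and 0 with the replicate block. In those 3 settings 964, 905 and 714 genes had an unadjusted p under 0.05. Leaving out 1 library gave 0 to 7 higher and 0 to 1 lower calls, and the only calls came without back replicate 1 or 2. The cause was not tested.

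The replicate numbers did not pair the libraries, with correlations of same-numbered deviations of 0.031, -0.080 and -0.077. Immediate early genes with a negative difference numbered 24 of 26, and 15 with the shift put back, in all 9 or in the 6 tail libraries. The counts of the other 12 lists tried stayed within 1.5 times under each setting. Of the named genes whose direction the text gives, none reversed in other settings than leaving out a library. Without 1 library, 3 did: Mc1r ranged from -0.46 to 0.11, Gab1 from -0.039 to 0.95 and Rpl29 from -0.41 to 1.22. The longer promoter motif was in 19 genes in place of 32. The curve compresses differences at far more than 10 counts. Syt5, with a mean normalised count of 328 in controls and 0 in knockouts, had a set-term difference of only -1.55. Genes under about 10 counts sit on the flattest part, among them Oas1a in controls and Syt5 and Gm11175 in knockouts. A count of 0 allows up to 3 counts.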

Other observations

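Genes of the Wnt and Notch pathways were divided. Wnt4, a ligand, was lower in every knockout library, with normalised counts of 1246, 2166 and 1049 in controls and 492, 219 and 124 in knockouts. Dkk3, a secreted member of the Dickkopf family, was higher in every one, at 37734, 34502 and 26817 against 52826, 55643 and 80108. Over 29 Wnt genes 13 had a positive group-only difference and the median was -0.027. Separated upward were 3 (10.3%) and downward 1 (3.45%), against 5.29% and 6.82% of all genes. Hes1, a target of Notch, was lower, at 4134, 7265 and 4821 against 2119, 3645 and 124, while Adam10, a protease that cuts Notch receptors, was higher, at 5889, 4474 and 6764 against 10873, 8590 and 8726. Of 17 Notch genes 6 were positive, with a median of -0.17, and 2 (11.8%) were separated in each direction. None of these genes was called in the group-only or set-term fit.

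Some genes listed as markers of other cells were separated by group. In the Schwann list 1 of 9 (11.1%) was separated upward, and in the fibroblast list 2 of 7 (28.6%). In the endothelial and pericyte list 1 of 2 was separated downward. Over all genes, 5.29% were separated upward and 6.82% downward. Schwann marker sums were 773 to 879 CPM in controls and 1017 to 1416 in knockouts. Endothelial and pericyte sums were 56.6 to 77.0 against 35.1 to 45.7, and fibroblast sums overlapped. Pmp22, a myelin gene, had normalised counts of 18104, 22369 and 20391 in controls and 53653, 40883 and 34850 in knockouts. Cspg4, a proteoglycan gene of pericytes and of melanocytic cells, had 3966, 3245 and 3497 against 1829, 1520 and 1755. Col1a2 had 519, 739 and 659 against 1339, 1542 and 2512, while Col1a1 had 144, 116 and 111 against 81, 157 and 140, so the 2 chains of type I collagen were not alike.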
